A study of Mus musculus with 53 samples.

Results

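Tbx3 is a T-box transcription factor that binds DNA through a conserved domain and acts mainly as a repressor. In mouse embryonic stem cells it belongs to the naive pluripotency network, works in parallel with Klf4 downstream of LIF signalling, and is known to vary from cell to cell in serum cultures. The cells compared here were 45 single cells of R1, an established mouse embryonic stem cell line with intact Tbx3. They were split by their own Tbx3 level into 13 Tbx3-positive cells (1 FPKM or more) and 32 Tbx3-negative cells (below 1 FPKM). FPKM counts sequenced fragments relative to transcript length and to all mapped fragments of the library. The members were thus chosen by a measured value, so the Tbx3 levels below are a description and carry no test.

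The 45 cells were among 53 samples of the series. R1 cells grown with serum and LIF on no feeders were sorted as SSEA1+DAPI-, which keeps live cells carrying the SSEA1 surface antigen, and cDNA was made on a Fluidigm C1 chip. A pool sample of the same sorted population, 5 bulk RNA libraries of R1 cells and 2 chromatin precipitations complete the series. The bulk libraries were Tbx3 +/+, +/N and N/N cells, where N marks a targeted allele, and R1 cells expressing a hairpin, directed at Tbx3 (shTbx3) or at luciferase (shLuc), each with 1 library. Tbx3 sites came from a tagged Tbx3 (bfTbx3) pulled down with streptavidin in N/N cells carrying the BirA ligase, with BirA cells lacking the tagged protein as control. The labels name no separate cultures for the 45 cells. Every p-value below therefore measures association among these cells and does not extend to other cultures.

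Markers of the labelled cell type were mixed in single cells. Zfp42 (Rex1), a naive marker, was at 1 FPKM or more in all 45 cells, and Tdgf1, a Nodal co-receptor, in 12 of the 13 Tbx3-positive and 30 of the 32 Tbx3-negative cells. Utf1, a chromatin-associated stem cell factor, reached that level in 11 and 29 cells and Sox2 in 12 and 23. Pou5f1 (Oct4), the core pluripotency factor, did so in only 2 and 9 cells. Its mean over the 45 cells was 54.4 FPKM, while the pool had 1370 FPKM. Nanog was at that level in 5 and 7 cells, and Fut4, a fucosyltransferase, was listed at 0 in every cell. A value of 0 in this table is therefore not read as absence of the transcript.

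Most listed genes of other cell types were at 1 FPKM or more in few cells or none. Sparc reached that level in 11 cells, Tfap2c in 10 and Vim in 9, close to Pou5f1 (11) and Nanog (12). T, Gata6, Gata4, Sox17, Cdx2, Col1a1 and Col3a1 were listed at 0 in all 45 cells, as were the 9 listed genes of the 2-cell stage. The summed level of 10 primitive streak and mesoderm genes had a median of 0 FPKM in both classes, with highest cells at 4.31 FPKM (positive) and 339 FPKM (negative, from Mixl1). The 15 primitive endoderm genes summed to a median of 0.478 FPKM in positive and 0.208 FPKM in negative cells, and their highest cells stood at 359.5 and 245 FPKM, mostly from Sparc. For 10 trophectoderm genes the medians were 0 and 0.125 FPKM and the highest cells 150.1 and 164 FPKM. For 10 fibroblast genes the medians were 0.117 and 0.135 FPKM and the highest cells 90.5 and 559 FPKM. No gene of these 5 lists was frequent enough to enter the comparison of classes.

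Tbx3 itself was unevenly spread. In the 13 positive cells the lowest value was 1.05 FPKM, the median 7.93 and the highest 117. That highest cell, cell 18, stood 8.07 times above the second highest cell (14.5 FPKM). Of the 32 negative cells, 24 were listed at 0 and 8 lay between 0.0473 and 0.943 FPKM. The value just inside the limit was 1.05 FPKM in cell 29, and the value just outside was 0.943 FPKM in cell 30, so these neighbouring cells fell into different classes on a small difference. Positive cells made up 28.9% of all cells (exact Clopper-Pearson 95% interval 16.4 to 44.3, counting error only). Mean Tbx3 over the 45 cells was 4.45 FPKM, or 1.89 without cell 18, while the pool had 25.8 FPKM.

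**Figure D1:**
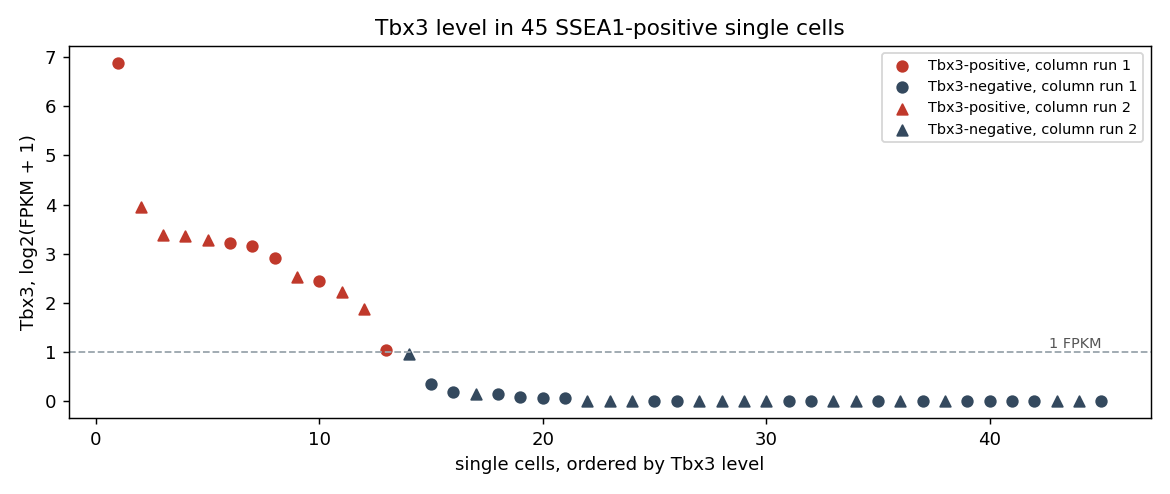
Tbx3 level of each of the 45 single cells as log2(FPKM + 1), cells ordered by level; colour gives the class, symbol the run of columns in the table, and the dashed line 1 FPKM. One cell stands far above the other 12 positive cells, and 24 of the 32 negative cells are at 0.

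Before genes were compared, the classes were set side by side for how much of the transcriptome each cell showed. A gene counted as detected at 1 FPKM or more. Positive cells had 1675 to 3207 detected genes (median 2414, mean 2422 ± 479, SD, n = 13). Negative cells had 1642 to 3295 (median 2262.5, mean 2338 ± 480, SD, n = 32). The ranges overlapped almost fully, and the difference of 84.1 genes (SE 158) was smaller than the spread between cells (permutation test with 100000 resamples, two-sided p = 0.588). Fragments per cell are not given in the sources used here. A relative depth, read from the lowest values of each cell, had a median of 0.755 in positive and 1.04 in negative cells. Its means, which were the values tested, were 0.880 and 0.991 (difference -0.111, SE 0.130, permutation p = 0.388).

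The table holds its cells in 2 runs of columns, within each of which the cell numbers rise; the labels do not say what the runs are. They differed in detected genes (medians 2446 and 1973) and in relative depth (medians 1.26 and 0.649). By genes above 0 FPKM they did not overlap: 4279 to 5241 in the first run and 2139 to 3781 in the second. The main fit below controls for genes at 1 FPKM or more and holds no term for the runs. Tbx3-positive cells were 6 of 23 in the first run and 7 of 22 in the second (two-sided Fisher's exact p = 0.749). Of the 8 negative cells with Tbx3 above 0, 6 were in the first run and 2 in the second. A Tbx3 value of 0 against a low one is therefore not read as a difference between cells. By number, 5 of 20 cells numbered 1 to 32 were positive, and 8 of 25 numbered 49 to 87 (p = 0.745). The test did not separate these shares, and values within the runs of columns are given beside each ranked gene below.

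**Figure D2:**
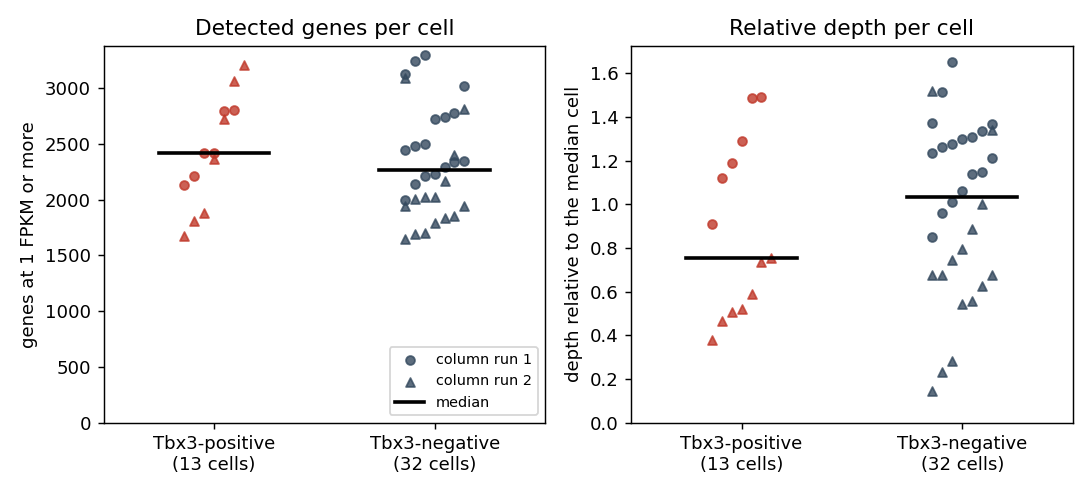
Genes at 1 FPKM or more (left) and depth relative to the median cell (right) for each of the 13 Tbx3-positive and 32 Tbx3-negative cells; circles and triangles are the first and second run of columns, bars are class medians. The classes overlap in both measures, with medians of 2414 and 2262.5 genes and relative depths of 0.755 and 1.04, and cells of the second run lie mostly lower than those of the first.

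No gene passed the test between the classes. Testing was limited to genes that reached 1 FPKM in no less than 25% of cells, which 3061 genes of 23235 did; Tbx3 was left out. The share was taken over both classes together, so a gene detected mainly in a single class could enter through that class. Each gene's log2(FPKM + 1) was fitted on class and number of detected genes, and the class difference was tested by permuting cells, two-sided. Of the 3061 genes, 0 (0%) passed a Benjamini-Hochberg adjusted p of 0.05, and the smallest adjusted p was 0.673. At an unadjusted p below 0.05 there were 131 genes (4.28%), of which 73 (2.38% of those tested) had a positive and 58 (1.89%) a negative difference. Moderated tests in limma also called 0 genes (132 unadjusted, smallest adjusted p 0.266), as did Fisher's exact tests on the number of cells with the gene (77 unadjusted, smallest adjusted p 0.204).

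The cells differed far more among themselves than by class. Across the tested genes the median size of the class difference was 0.55 on the log2 scale and its median SE 0.90. Positive differences were found for 1536 genes and negative ones for 1525, and no gene had classes that did not overlap. For the median gene, class went with 1.06% of the variance between cells, detected genes with 2.88% and run of columns with 1.57%. The median Spearman correlation across genes was 0.345 between 2 positive cells (78 pairs), 0.349 between 2 negative cells (496 pairs) and 0.349 between cells of different classes (416 pairs). These pairs share cells, so the correlations are given as a description; 2 positive cells were no more alike than 2 cells of different classes.

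**Figure D3:**
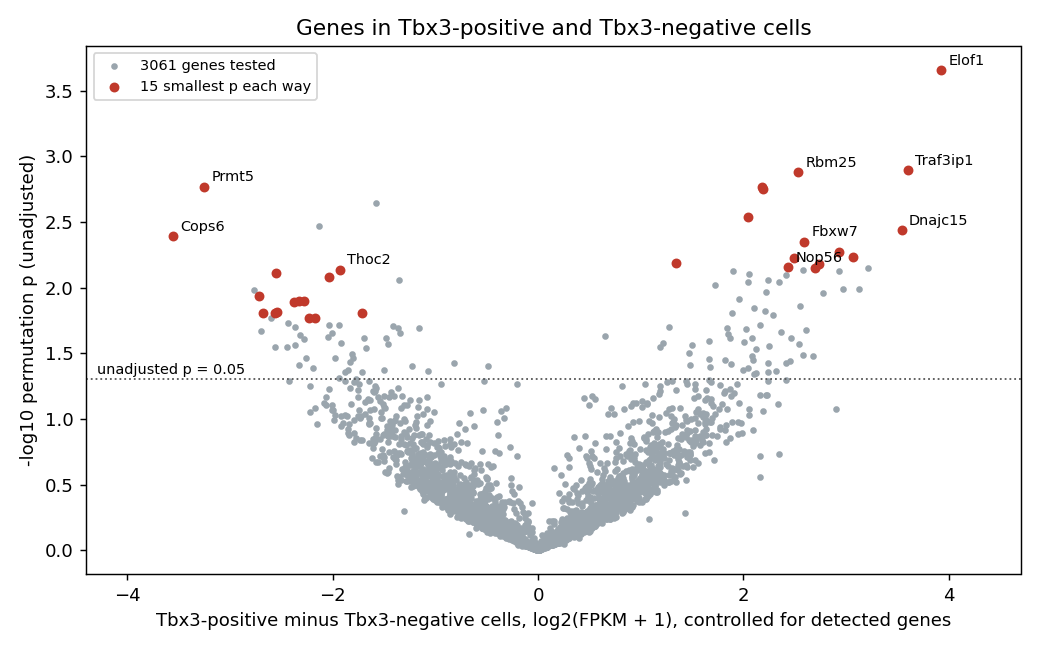
Class difference (x axis, log2 scale, controlled for detected genes) against the negative log10 of the unadjusted permutation p (y axis) for 3061 genes; red points are the 15 named genes with the smallest p in each direction. Elof1 stands at a difference of 3.93, and no gene passes the adjusted threshold.

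The genes described next were ranked by p in these same cells: the 15 with the smallest p among positive differences and the 15 among negative ones. Their values describe these cells, and none passed the test (adjusted p 0.673 for Elof1, 0.872 to 0.924 for the other 29). Elof1 and Nop56 had moreover been singled out from earlier results of these data, so their p-values are not independent evidence. Elof1, Fbxw7, Yipf6, Ubxn2a, Pole and EU599041 were below the share set by the filter among negative cells, and entered through positive cells. Thoc2, Brd7, Dimt1, Tfg, Ensa and Qdpr were below it among positive cells, and entered through negative cells. The detection contrasts of these genes are therefore given as a description. Where a pair of differences is given as within the runs, it stands for the first and the second run of columns.

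Elof1, a small conserved factor that travels with elongating RNA polymerase II, had the smallest p. It was at 1 FPKM or more in 11 of 13 positive and 6 of 32 negative cells. Among positive cells it ran from 0 to 719 FPKM with a median of 63.1, and among negative cells from 0 to 353 with a median of 0. Most negative cells were thus near 0, but the classes overlapped, and the cell with the highest Tbx3 had only 4.03 FPKM of Elof1. The difference was 3.93 (SE 0.924, unadjusted permutation p = 0.00022, adjusted 0.673). It was 2.38 within the first run of columns (p = 0.0708) and 5.42 within the second (p = 0.00151), and leaving out each positive cell in turn gave 3.45 to 4.36.

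Nop56, a core protein of the box C/D particles that guide methylation of ribosomal RNA, was found in all 13 positive and 27 of 32 negative cells. Its values were 11.9 to 1008 FPKM (median 241) in positive cells and 0 to 1284 FPKM (median 20.7) in negative cells. The highest value of all belonged to a negative cell. The difference was 2.44 (SE 0.851, p = 0.00697, adjusted 0.872). It was 0.81 among cells numbered 1 to 32 (p = 0.628) and 3.14 among those numbered 49 to 87 (p = 0.00544). By run of columns it was 1.58 (p = 0.220) and 3.79 (p = 0.00631), and without the 25% of cells with the fewest detected genes it was 1.27 (p = 0.207).

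Rbm25, a regulator of splicing, was at 78.8 to 563 FPKM (median 185) in the positive and 0.0921 to 344 (median 42.6) in the negative cells. It was at 1 FPKM or more in all 13 positive and in 30 negative cells. Of the 3061 tested genes, 373 were at that level in all 13 positive cells. For Rbm25 the negative cells ranged from near 0 to high (difference 2.53, SE 0.725, p = 0.00132). Within the runs the Rbm25 difference was 2.07 and 3.29. Eif2d, an initiation factor, had medians of 6.98 and 0.177 FPKM, and Sec61a1, the channel subunit of the endoplasmic reticulum translocon, 3.53 and 0.167. Each of the latter was detected in 8 positive and 8 negative cells, with differences of 2.93 and 2.73. Both were larger in the second run of columns: Eif2d was at 1.23 (p = 0.422) and 4.81 (p = 0.00491), and Sec61a1 at 1.14 (p = 0.384) and 5.04 (p = 0.00301).

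Traf3ip1, a subunit of the intraflagellar transport complex, was at 70.5 to 1001 FPKM (median 463) in positive and 0 to 1265 (median 34.9) in negative cells. Its difference was 3.60 (SE 1.04, p = 0.00128), with 3.81 and 3.59 within the runs of columns; it was 6.09 among cells numbered 1 to 32 and 2.37 among those numbered 49 to 87. Its mean over the 45 cells was 290 FPKM, yet the pool had 10.7 FPKM. That ratio of cells to pool, 27.1, lay at the 98.6th percentile of the tested genes, of which 4.45% were more than 10-fold above the pool. Whether amplification of single-cell cDNA has a part in the Traf3ip1 values was not tested.

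Fbxw7, the substrate receptor of an SCF ubiquitin ligase, was detected in 7 positive and 6 negative cells (difference 2.59; within the runs 2.21 and 3.10). Arih1, a ubiquitin ligase that works with cullins, was detected in 7 and 9 cells (2.19). Its difference was 1.21 (p = 0.257) and 3.29 (p = 0.00197) within the runs, and 0.37 (p = 0.723) among cells numbered 1 to 32. Ubxn2a, an adaptor of the p97 segregase, was found in 7 and 5 cells (1.34; within the runs 1.64 and 1.14). Yipf6, a Golgi membrane protein, was found in 7 and 6 (2.19; within the runs 1.92 and 2.31). Detection shares were above 50% in positive and well below it in negative cells for Fbxw7, Arih1, Ubxn2a and Yipf6. These genes were picked by the p of their class difference in these same cells, which favours such shares. Nothing is therefore read from the pattern they share. Vps29, a retromer subunit, was found in all 13 positive and 24 negative cells with medians of 491 and 73.7 FPKM (3.07). Its difference was 2.14 and 4.72 within the runs, and 0.98 (p = 0.602) among cells numbered 1 to 32.

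Dnajc15, a mitochondrial co-chaperone, was detected in 10 and 12 cells (difference 3.54). It was at 1.71 (p = 0.339) and 5.74 (p = 0.0015) within the runs. Pole, the catalytic subunit of DNA polymerase epsilon, was detected in 8 and 7 cells (2.04; within the runs 2.12 and 2.53), and Alpk3, an alpha kinase, in 12 and 21 (2.49; within the runs 2.44 and 3.19). EU599041 was detected in 6 and 7 cells (2.70; within the runs 1.64 and 4.27). It differed by 0.17 (p = 0.872) among cells numbered 1 to 32 and by 4.46 (p = 0.00451) among those numbered 49 to 87.

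Among negative differences the smallest p belonged to Prmt5, the arginine methyltransferase that modifies histones and splicing proteins. It was at 0 to 36.2 FPKM (median 0.388) in positive and 0 to 503 FPKM (median 24.2) in negative cells. Detection was 5 of 13 and 22 of 32, and the highest positive cell, cell 18, was also the cell with the highest Tbx3. The difference was -3.25 (SE 0.963, p = 0.0017), and -3.04 and -3.08 within the runs of columns.

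Thoc2, a factor that couples transcription to mRNA export, was at 1 FPKM or more in 1 positive and 19 negative cells. It was at 0 to 22.7 FPKM (median 0) in positive and 0 to 210.4 FPKM (median 2.71) in negative cells. The 1 positive cell above 1 FPKM lay within the range of the negative cells. The difference was -1.93 (SE 0.692, p = 0.00728), and -1.71 and -1.91 within the runs of columns.

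Cops6, a subunit of the COP9 signalosome that removes NEDD8 from cullins, had medians of 5.98 FPKM in positive (0 to 278) and 269.9 FPKM in negative cells (0 to 2138). It had the lowest difference of all tested genes, -3.56 (SE 1.15, p = 0.00406), with -1.99 and -4.76 within the runs. Cul5, a cullin, had medians of 8.74 and 67.5 FPKM; its difference of -2.04 was -0.18 in the first run of columns (p = 0.786) and -3.62 in the second (p = 0.012).

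Lin28a, which binds RNA and blocks maturation of let-7, was detected in 9 positive and 27 negative cells, with medians of 7.66 and 218 FPKM (difference -2.68, SE 1.05, p = 0.0155). Within the runs it was at -3.99 (p = 0.00309) and -1.90 (p = 0.317). The bromodomain protein Brd7 was detected in 2 and 15 cells (-2.55; within the runs -2.62 and -2.33). Polr1c, a subunit of RNA polymerases I and III, was detected in 7 and 25 (-2.72; within the runs -3.76 and -1.76). Dimt1, a ribosomal RNA methyltransferase, was detected in 2 and 18 (-1.71; within the runs -1.19 and -2.40). Rnaseh2a, which removes RNA from RNA-DNA hybrids, was detected in 5 and 18 cells (-2.38). Its difference was -3.97 in the first run of columns and -0.34 in the second (p = 0.791).

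Iqgap1, a scaffold of the actin cytoskeleton, had medians of 3.53 and 68.2 FPKM and a difference of -2.23 (SE 0.889), with -1.29 (p = 0.389) and -3.32 (p = 0.0139) within the runs. Fam36a (Cox20), an assembly factor of cytochrome c oxidase, was detected in 4 and 17 cells (-2.17; within the runs -3.05 and -1.68). Acsl4, which activates long-chain fatty acids, was detected in 6 and 24 cells (-2.28; within the runs -1.10 and -3.48). Tfg, a factor of endoplasmic reticulum export, was detected in 2 and 15 (-2.33; within the runs -2.37 and -2.31). The phosphatase inhibitor Ensa was detected in 1 and 16 (-2.54; within the runs -2.98 and -3.22), and Qdpr, which recycles tetrahydrobiopterin, in 2 and 18 (-2.56; within the runs -1.78 and -2.74).

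The differences also moved with the Tbx3 limit and with the cells kept. The 30 genes were ranked at the 1 FPKM limit in these same cells, which favours smaller differences under another limit. Moves towards 0 are therefore not read as an effect of the limit. With a limit of 0.1 FPKM, 12 of the 30 ranked genes moved by over 1.5 times, all towards 0, among them Prmt5 (-2.01), Cops6 (-2.28), Lin28a (-1.56), Acsl4 (-0.87), Rbm25 (1.51) and Yipf6 (1.17). With a limit of 5 FPKM, 6 moved, also towards 0: Eif2d (0.74), Arih1 (0.85, p = 0.340), Ubxn2a (0.77), Dnajc15 (2.32), Cul5 (-1.12) and Polr1c (-1.38). Leaving out the 25% of cells with the fewest detected genes moved Nop56, above, and 4 others: EU599041 (1.17), Sec61a1 (1.77), Vps29 (1.86) and Iqgap1 (-1.46). Among cells numbered 1 to 32, beside the genes given above, Pole was at 3.28, Dnajc15 at 1.90, Thoc2 at -0.96, Lin28a at -1.31 and Qdpr at -3.97. Among those numbered 49 to 87, Qdpr was at -1.57 and Dimt1 at -0.87.

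**Figure D4:**
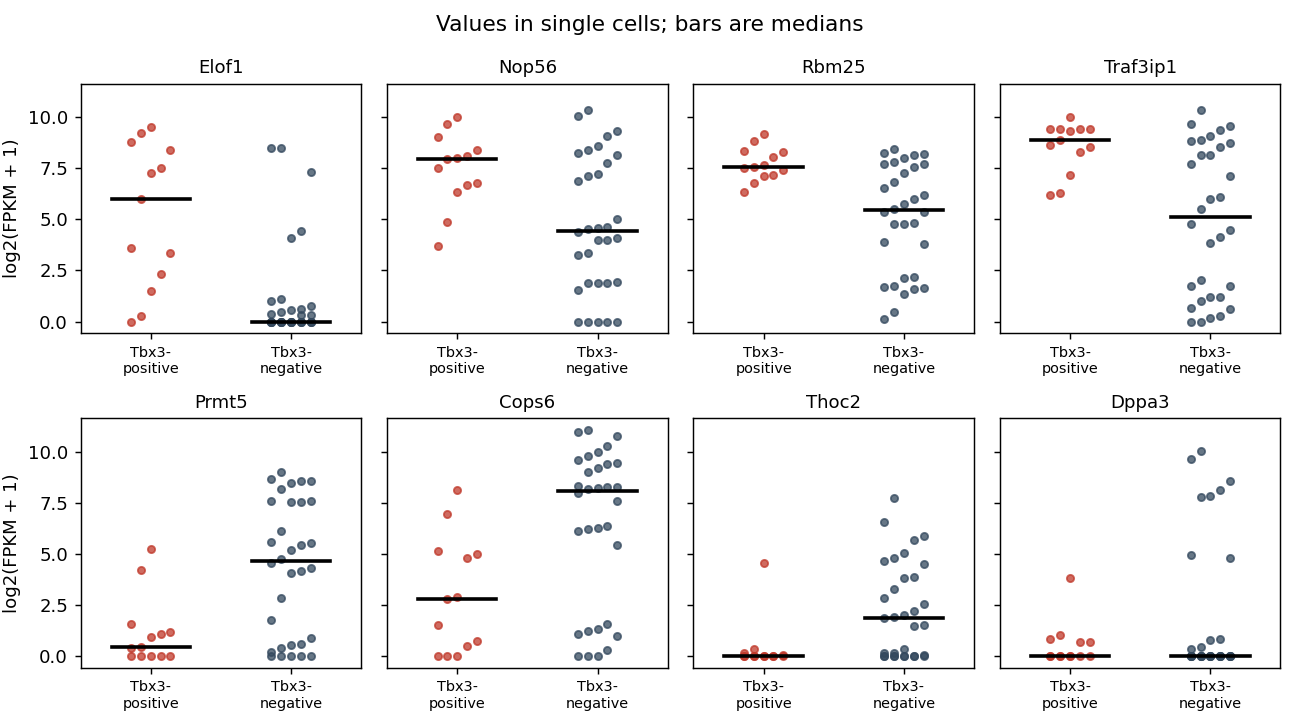
Single-cell values as log2(FPKM + 1) of 4 genes with positive differences (Elof1, Nop56, Rbm25, Traf3ip1), 3 with negative differences (Prmt5, Cops6, Thoc2) and Dppa3, in Tbx3-positive (red) and Tbx3-negative (blue) cells; bars are medians. In every panel the classes overlap; the Elof1 medians are 63.1 and 0 FPKM.

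Dppa3 (Stella), a maternal-effect gene that protects DNA methylation in the early embryo, was of interest because the title of the study links it to Tbx3. It was at 1 FPKM or more in 2 of 13 positive cells (15.4%) and 8 of 32 negative cells (25%), a difference that did not pass the test (two-sided Fisher's exact p = 0.698). The highest positive cell had 13.04 FPKM, and 6 negative cells but 0 positive ones exceeded 100 FPKM, a level chosen after the values were seen. At 10 of 45 cells Dppa3 missed the 25% limit. With a limit of 10% its difference was -1.63 (SE 0.951, permutation p = 0.0941, adjusted 0.953 over 5526 genes). In the bulk libraries, 1 per group, Dppa3 was at 5.32 FPKM (+/+), 24.7 FPKM (N/N), 29.1 FPKM (shLuc) and 51.3 FPKM (shTbx3). The nearest Tbx3 site lay 1400 bp from its start, and 17.5% of placed tested genes had a site within 20 kb.

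Gene lists were described by their counts and medians, beside all tested genes (1536 positive, 1525 negative, median difference 0.0028). No member of any list passed the test. Among 10 tested naive pluripotency genes, 6 had positive and 4 negative differences, with a median of 0.44. Klf4, a target of LIF and Stat3, had the largest: it was detected in 11 positive and 15 negative cells, with medians of 17.03 and 0.683 FPKM (difference 2.01, SE 0.864, p = 0.0258). Its difference was 0.64 among cells numbered 1 to 32 (p = 0.715) and 2.90 among those numbered 49 to 87 (p = 0.00975). Nr0b1 (Dax1), a nuclear receptor of the network, followed at 1.01 (SE 1.03).

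The 9 tested core pluripotency factors had 3 positive and 6 negative differences (median -0.055), from -2.68 to 1.48. Lin28a, above, had the largest difference in size. Utf1 came next, with medians of 38.05 and 275 FPKM and a difference of -2.28 (SE 0.975, p = 0.0244). Sox2 went the other way, with medians of 20.9 and 4.82 FPKM and a difference of 1.48 (SE 0.688, p = 0.039). Pou5f1, in too few cells for the main test, differed by -0.77 (SE 1.01, p = 0.449) when genes in 10% of cells were included. Of the 3 tested formative and primed genes, which mark cells leaving the naive state, 1 had a positive and 2 a negative difference. The de novo methyltransferases Dnmt3b and Dnmt3a were at -1.27 (SE 0.930) and -0.70 (SE 0.666), and the transcription factor Etv5 was at 0.69 (SE 0.702). Among 6 tested DNA methylation and Tet genes, 3 had positive and 3 negative differences (median -0.037), and Tet2, which oxidises methylcytosine, had 1.04 (SE 0.531, p = 0.0544). The 3 tested LIF and Stat3 pathway genes had 2 positive and 1 negative difference (median 0.48); Klf4 is given above, and the kinase Jak1 had -0.53 (SE 0.747).

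The lists that hold Elof1 and Nop56 had differences of both signs. Of 11 tested elongation factors 4 had positive and 7 negative differences (median -0.17), and Supt6h, a histone chaperone of elongation, had -1.13 (SE 0.776). Of the 12 RNA polymerase II subunits, 10 had positive and 2 negative differences (median 0.59, the highest of the lists drawn). At an unadjusted p below 0.05 there were 0 of them, against 4.28% of all tested genes. With 12 genes, nothing is read from that count. The subunits with the largest differences in size were Polr2f (-2.16, SE 1.31) and Polr2i (1.63, SE 1.06). Of 8 tested box C/D and H/ACA proteins 5 had positive and 3 negative differences (median 0.24), with Dkc1, the pseudouridine synthase, at -1.46 (SE 0.964). Nop58 had the largest positive difference of that list after Nop56, at 1.34 (SE 0.697, p = 0.0607). The 34 tested ribosome assembly factors divided into 17 and 17 (median 0.016), among them Polr1c above and Utp15, a component of the small subunit processome, at 2.16 (SE 1.145, p = 0.066).

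Growth and cell cycle lists also held differences of both signs. G1/S and replication genes had 13 positive and 7 negative differences (median 0.28), with the helicase subunit Mcm3 at 2.42 (SE 1.195, p = 0.0504) and thymidylate synthase Tyms at -1.65 (SE 0.974). G2/M genes had 7 and 11 (median -0.067), with the mitotic cyclin Ccnb1 at -1.79 (SE 0.898, p = 0.0525) and the mitotic kinase Plk1 at 1.39 (SE 1.22). Cytosolic ribosomal proteins had 11 and 19 (median -0.075), with Rpl15 at -1.63 (SE 0.891) and Rps7 at 1.22 (SE 0.529, p = 0.0265). Respiratory chain genes had 7 and 12 (median -0.21), with the complex II subunit Sdhb at -2.17 (SE 1.22) and the complex I subunit Ndufv1 at -1.27 (SE 1.21). Glycolysis genes had 6 and 5 (median 0.12), with triosephosphate isomerase Tpi1 at -1.05 (SE 1.21) and enolase Eno1 at -0.997 (SE 0.9003). Stress genes had 3 and 2 (median 0.20), with Chac1, a target of the unfolded protein response, at 1.15 (SE 0.834) and the phosphatase Dusp1 at -0.85 (SE 0.793). The 3 tested PI3K and Akt genes had 1 positive and 2 negative differences (median -0.020). The 2 negative ones were the translation repressor Eif4ebp1 at -0.62 (SE 0.582) and the S6 kinase Rps6kb1 at -0.020 (SE 0.893). Without the control for detected genes, Rps6kb1 was at 0.084.

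**Figure D5:**
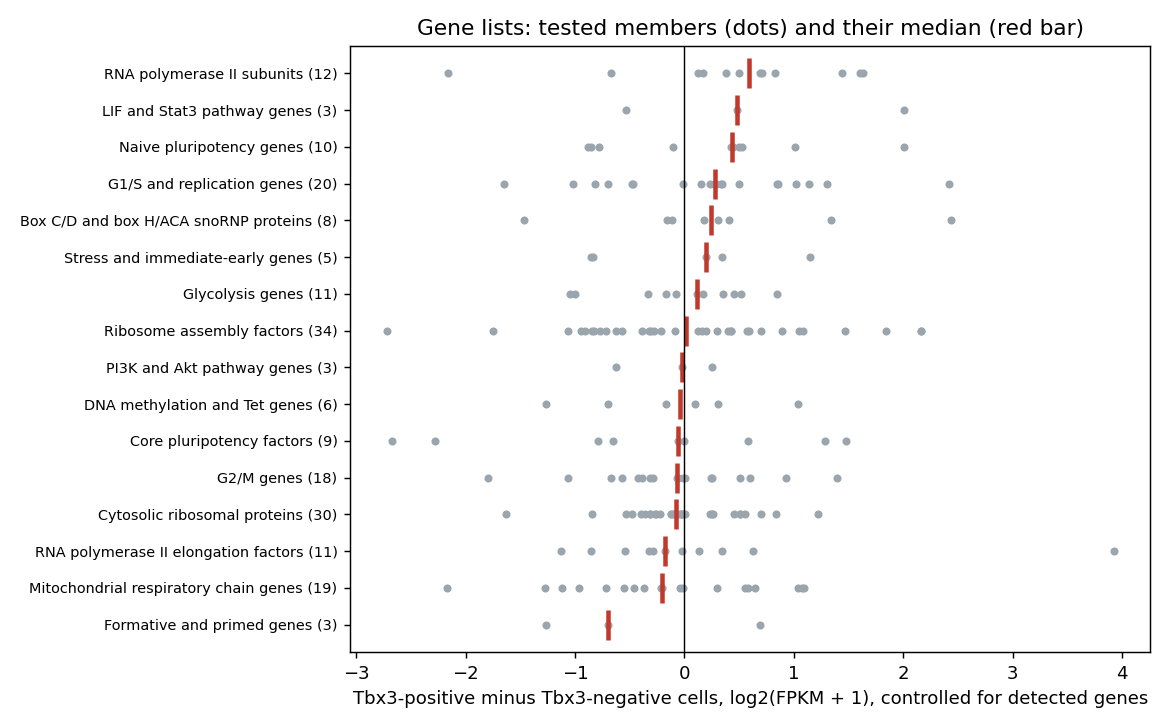
Class differences (log2 scale, controlled for detected genes) of the tested members of 16 gene lists with 3 or more tested members; each dot is a gene, the red bar the median, and the number of tested members stands in brackets. Members fall on both sides of 0 in every list, and the medians run from -0.70 (formative and primed genes) to 0.59 (RNA polymerase II subunits).

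The ranked genes were also read in the bulk libraries, where the Tbx3 levels were 44.4 FPKM (+/+), 15.1 FPKM (N/N), 13.8 FPKM (shLuc) and 5.09 FPKM (shTbx3). With 1 library a group there is no replicate check, and in bulk samples fewer cells of a type and less RNA per cell cannot be told apart. Of the 15 genes with positive differences, 9 had less RNA in N/N than in +/+ cells, and 7 less in shTbx3 than in shLuc cells. Of the 15 with negative differences, 8 and 8 were lower. Over 3033 tested genes in the bulk table, 55.4% were lower in N/N and 41.3% lower in shTbx3, and 1.35% and 1.62% were 2-fold or more apart. Of the 30 ranked genes 0 were, which is near those shares. Elof1 levels were 32.8 FPKM (+/+), 25.1 FPKM (N/N), 38.4 FPKM (shLuc) and 50.5 FPKM (shTbx3). Nop56 was 70.3 and 76.9 FPKM in the first pair and 136 and 159 in the second. Elof1 thus differed in opposite directions in the pairs, and Nop56 was slightly higher in both N/N and shTbx3.

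Tbx3 sites were compared on the mm9 build, as the distance from a gene's start to the nearest of 3078 sites. A site within 20 kb was found for 527 of 3015 placed genes (17.5%). It was found for 3 of the 15 genes with positive differences: Elof1 (14079 bp), Ubxn2a (9197 bp) and Vps29 (17813 bp). Of the 15 with negative differences, Tfg alone had one, over the start itself. Of the 130 placed genes at an unadjusted p below 0.05, 20 (15.4%) had a site. With 15 genes in each direction, nothing is read from these counts.

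The upstream side of the Tfg site is shown because Tfg was the ranked gene whose site had its middle just before the start of transcription (minus strand, chromosome 16, position 56717563). The middle 150 bases of this site are given on the gene's strand, mm9 chr16:56717573-56717722. No T-box core GGTGTGA, searched on both strands and written in capitals where present, was found in this window; 6.37% of all sites held it in their middle 150 bases.
Tfg: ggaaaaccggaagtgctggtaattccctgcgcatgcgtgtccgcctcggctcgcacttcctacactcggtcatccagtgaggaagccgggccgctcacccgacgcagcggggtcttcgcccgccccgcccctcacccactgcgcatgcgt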

How the data were processed

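The single-cell table and the bulk table held FPKM values computed by the authors with TopHat and Cufflinks programs (Cufflinks, Cuffnorm and Cuffdiff are named), build mm9, as the submitters' processing notes list them. Neither the tool behind each table nor the fragment depth is given in the sources used here. The Tbx3 sites and their score were deposited by the authors as a peak list (HOMER and Bowtie 1.0 are named in the same notes).

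From the FPKM values, log2(FPKM + 1) was fitted on Tbx3 class and number of detected genes (1 FPKM or more) for the 3061 genes detected in 25% or more of the 45 cells. Residuals of the fit without class were permuted 100000 times (Freedman-Lane, two-sided) and adjusted by Benjamini-Hochberg, with NumPy 2.4.6 and SciPy 1.17.1. The pseudocount understates changes of low genes. limma 3.58.1 and Fisher's exact test were alternatives. The calculation was tested on simulated data. Relative depth is the inverse of the 5th percentile, over values above 0, of FPKM times transcript length in each cell. It was divided by its median over cells, so a higher value stands for a deeper cell. This form was chosen after an earlier form had been seen to saturate. Single cells were not thinned, as counts are not given.

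Named were Tbx3, Elof1, Nop56 and Dppa3, the 15 genes with the smallest p in each direction without predicted models, Riken clones and small RNAs (some genes are not reported here, and the next in rank took their places), and members of each list with the largest differences in size (at most 4 by the rule; values are given for 2, in lists with 3 or more tested members). Values of Sox2 and Nop58 are given beside the 2 of their lists. Members, lists and rules were chosen with earlier results of these data known. Lists with fewer than 3 tested members are given here only: Myc genes (1 tested, median -0.15), p53 targets (2, -0.60) and T-box genes (1, 0.18). Lists with no tested member are given by summed level.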

Additional observations from a re-analysis of the deposited data

How the results depend on the processing

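In all 34 alternatives 0 genes were called. The smallest adjusted p ranged from 0.0918 (second run of columns alone) to 0.968 (without cell 72). The runs of columns and the comparison with cells at 0 were chosen after seeing the data. Leaving out each positive cell in turn gave 0 to 0 genes. The difference in detected genes was -2.24 when genes above 0 were counted. The 30 ranked genes had 1 sign under every log2 alternative, but they were chosen by rank in these same cells. In size, 28 of the 30 moved by over 1.5 times under 1 alternative or more: 10 and 4 in cells numbered 1 to 32 and 49 to 87, 12 and 11 in the first and second run of columns, 12 and 6 with Tbx3 limits of 0.1 and 5 FPKM, 5 and 8 with pseudocounts of 0.1 and 5, and 5 without the cells with the fewest detected genes. Of 87 tested genes of the naming rule, 59 had 1 sign and 28 changed it under 1 or more, and 5 had the other sign in percentage points of cells.

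Of the 56 genes recomputed for the text, these took the other sign. Among cells numbered 1 to 32, Nr0b1 was at -0.17 and Tyms at 0.072; among those numbered 49 to 87, Dkc1 was at 0.094, Plk1 at -0.49 and Rps6kb1 at 1.30. In the first run of columns Polr2f was at 0.70; in the second Supt6h was at 0.066 and Rps6kb1 at 0.044. With a Tbx3 limit of 0.1 FPKM, Jak1 was at 0.062. Rps6kb1, close to 0, was also at 0.084 without the control for detected genes, at 0.071 with relative depth in its place and at 0.19 with a pseudocount of 0.1, and ran from -0.49 (without cell 84) to 0.18 (without cell 55) with positive cells left out in turn. In percentage points of cells Dusp1 was at 0.962, Jak1 at 0.721 and Rps6kb1 at 2.40. Sox2 and Nop58, outside these 56 genes, each took the other sign under 1 log2 alternative. The cause was not tested.

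No paired analysis was possible because the cell numbers only name cells of 1 group. Depth limits the comparison: 13 positive cells, and fragments per cell not given.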

Other observations

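Single cells and the pool gave different levels for the same sorted population. Over 3055 tested genes above 0 in the pool, the mean of the 45 cells relative to the pool had a median of 0.08 on the log2 scale, with a 5th percentile of -2.39 and a 95th of 3.04. Of the ranked genes, Alpk3 was 9.75 times as high in the cells as in the pool (57.2 and 5.86 FPKM), EU599041 8.88 times and Acsl4 8.06 times. Ubxn2a was at 0.221 times the pool (5.10 and 23.1 FPKM) and Pole at 0.318 times (12.5 and 39.3 FPKM). Elof1 (75.7 and 75.97 FPKM) and Nop56 (212 and 240.1 FPKM) were close to the pool.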
